A study of Rattus norvegicus with 9 samples.

Results

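The miR-130 and miR-301 family was followed through small RNA libraries of rat (Rattus norvegicus) striatum, a forebrain region involved in movement that manganese is known to injure. It comprised 8 entries, of 1759 small RNA entries in all and 764 miRNA entries, found by name in every count table (the prefix rno, for rat, is dropped from here on). These were the 3p arms rno-miR-301b-3p, rno-miR-301a-3p, rno-miR-130a-3p and rno-miR-130b-3p, the 5p arms rno-miR-301b-5p, rno-miR-301a-5p and rno-miR-130b-5p, and rno-miR-3590-5p, which is read from the opposite strand of the miR-130a locus. The family was taken up because miR-301b-3p had the lowest p-value of all entries in the comparison of MMT with control. The difference between MMT and control is therefore given for every member as a description, without a test.

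Rats of both sexes (9 males and 9 females, 8 weeks old, 220 ± 20 g) were used. The MMT group received the organic manganese fuel additive methylcyclopentadienyl manganese tricarbonyl at 4 mg/kg, equal to about 1 mg Mn/kg, given in corn oil. A positive control group received manganese chloride tetrahydrate (MnCl2) at 200 mg/kg in saline at 10 ml/kg, and the control group received corn oil alone at 1 ml/kg. Dosing was intragastric, daily on 6 days of each week, over 8 weeks. Each group held 3 rats of each sex and gave 3 libraries. MnCl2 and control animals differed in vehicle as well as in compound, and these cannot be told apart. The labels give neither the strain nor the sex behind a library, nor whether a library came from 1 rat or a pool, so a p-value here reflects the scatter among libraries alone, and that scatter may be technical.

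MicroRNAs are loaded as short single strands into Argonaute proteins and lower the output of messenger RNAs that pair with their seed, bases 2 to 8 from the 5′ end. Members with the same seed can bind the same sites, and the second strand of the precursor is usually degraded. Here the 3p arms are called the guide strands, though miR-130b-5p had more counts over all libraries (89) than miR-130b-3p (65). In other tissues the miR-130 and miR-301 family is known for acting on the nuclear receptor PPARγ in lung vessels.

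The 4 guide strands (3p arms) are shown because their likeness limits how far their counts can be separated. The seed is in capitals, and sequences are written as the deposited tables give them, 5′ to 3′.
miR-301b-3p: cAGTGCAAtggtattgtcaaagc
miR-301a-3p: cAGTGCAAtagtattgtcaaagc
miR-130a-3p: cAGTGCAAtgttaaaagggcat
miR-130b-3p: cAGTGCAAtgatgaaagggcat
All 4 carry the seed AGTGCAA, and no other miRNA entry of the 764 does. Counted from the 5′ end, miR-301b-3p differs from miR-301a-3p by the single substitution A10G over 23 bases. Between miR-130a-3p and miR-130b-3p there are 2 substitutions, T11A and A13G, over 22 bases. The entries are 21 to 23 bases long, so no length correction was made between them. Whether the library preparation captured the sequences equally was not tested.

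The remaining entries are the 5p arms, with their own seeds in capitals, and the antisense miR-3590-5p, in which the capitals mark the complement of the miR-130a-3p seed.
miR-301b-5p: gCTCTGACtaggttgcactact
miR-301a-5p: gCTCTGACtttattgcactac
miR-130b-5p: aCTCTTTCcctgttgcactact
miR-3590-5p: tgcccttttaacaTTGCACTg
miR-301a-5p and miR-301b-5p share the seed CTCTGAC and differ at 3 of 21 bases (T10A, T11G and A12G). All 21 bases of miR-3590-5p are complementary to miR-130a-3p. No other entry of the tables shared 16 or more bases with a member on either strand.

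The precursors come from 3 loci of the RefSeq GRCr8 assembly, in which all members but miR-301a-3p have a mature entry of the same sequence. The hairpins of miR-301b (chromosome 11, 97384033 to 97384110, plus strand) and miR-130b (97384380 to 97384461, plus strand) lie 269 bases apart. Both overlap the gene entry 2610318N02Rikl. The miR-301a hairpin (chromosome 10, 72422599 to 72422698, plus strand) overlaps the genes Ska2, a kinetochore component, and Prr11. The miR-130a hairpin (chromosome 3, 90229228 to 90229315, minus strand) overlaps that of miR-3590 (90229235 to 90229308, plus strand) and no other gene of the RefSeq table. The 2 miR-301 hairpins are shown with their arms in capitals, since their arms are compared further on.
miR-301b hairpin: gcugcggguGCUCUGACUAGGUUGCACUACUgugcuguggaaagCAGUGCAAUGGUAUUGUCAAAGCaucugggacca
miR-301a hairpin: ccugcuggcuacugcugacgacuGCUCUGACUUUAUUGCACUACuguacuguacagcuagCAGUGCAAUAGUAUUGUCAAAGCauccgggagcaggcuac

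Library totals ran from 730044 to 1543987 counts in MMT, 753383 to 989556 in MnCl2 and 583045 to 2012769 in control libraries. The deepest and the shallowest libraries, control 1 and control 3, belong to the same group. Scarce entries had higher relative levels in shallow libraries. Of 246 entries at 20 CPM or less (counts scaled to a common library size by the trimmed mean of M-values, TMM, and given per 1e6), 219 (89%) had a negative correlation with the log2 total over the 9 libraries, while 34 of the 203 most abundant entries (16.7%) had one. Summed levels of 9 lists of marker miRNAs (29 entries, for neurons, oligodendrocytes, microglia and leukocytes, endothelium, smooth muscle, erythrocytes, choroid plexus, epithelium and skeletal muscle) overlapped between the groups of every comparison, and no marker was at 0 throughout a group. Neuronal markers summed to 43830 to 57810 CPM in MMT, 45100 to 57420 in MnCl2 and 43430 to 59640 in control libraries. Other lists varied more within a group. Choroid plexus markers summed to 232.3 to 1938 CPM in MMT, 253.3 to 1189 in MnCl2 and 361.2 to 1062 in control libraries. Smooth muscle markers summed to 7652 to 9173 CPM in MMT, 7694 to 19260 in MnCl2 and 7028 to 9918 in control libraries. The filter on low counts kept 7 of the 8 members, and miR-130b-3p was left out of the fits.

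**Figure D1:**
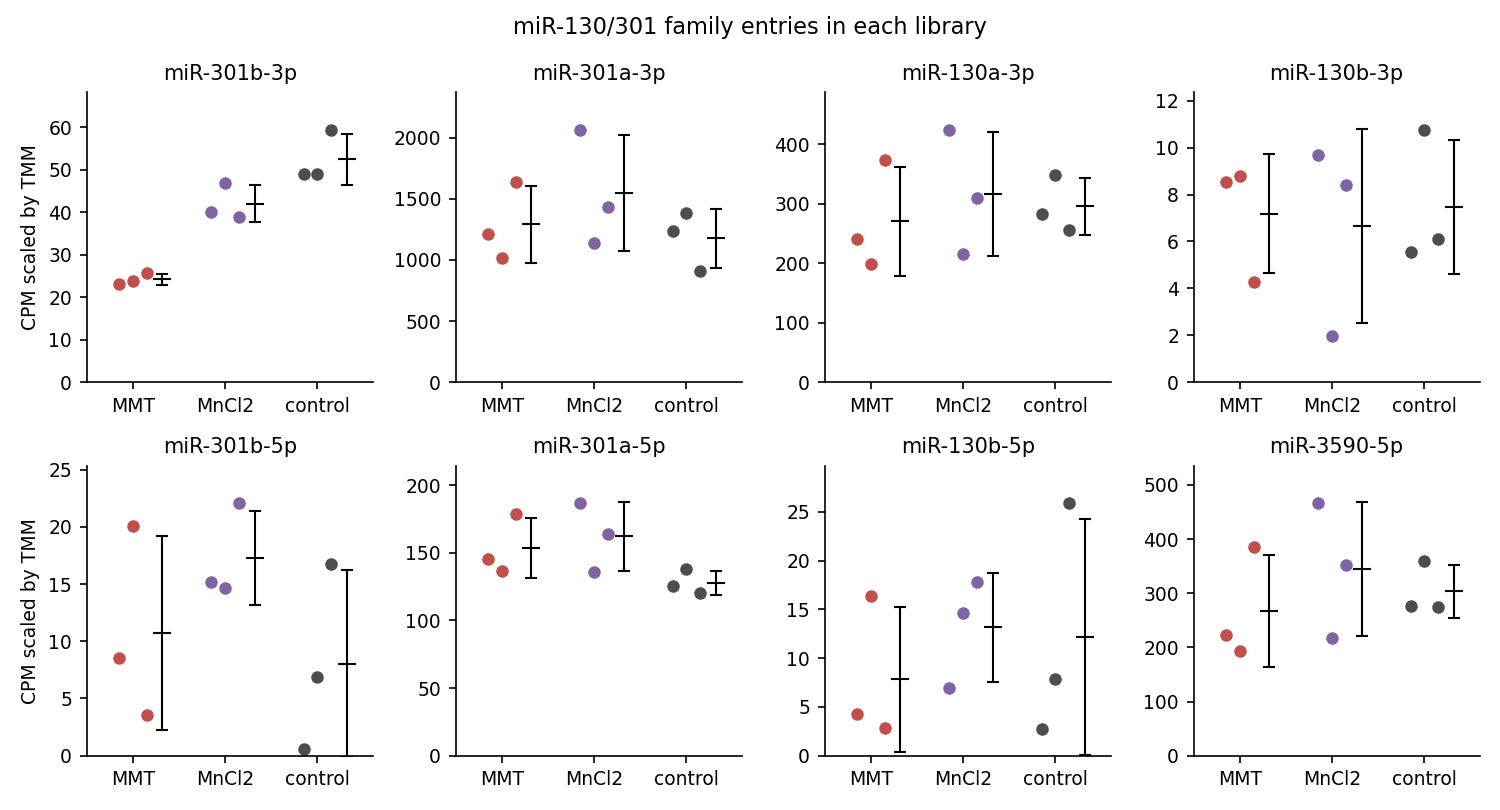
Level of each family entry (CPM scaled by TMM, linear axes from 0) in the 3 MMT, 3 MnCl2 and 3 control libraries, with 1 point per library and the mean ± SD beside each group. Only for miR-301b-3p do the MMT points, 23 to 25.6 CPM, lie below all points of the MnCl2 and control libraries.

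miR-301a-3p was the leading guide strand of the striatum and held 79.7% of the counts of the 4 guides, and it ranked 64 among the 764 miRNA entries by total count. miR-130a-3p held 17.6%, miR-301b-3p 2.32% and miR-130b-3p 0.405%. In control libraries the order of mean levels was miR-301a-3p (1175 ± 240 CPM), miR-3590-5p (303.5 ± 49), miR-130a-3p (295.8 ± 48.2), miR-301a-5p (127.8 ± 9.15), miR-301b-3p (52.4 ± 6), miR-130b-5p (12.2 ± 12.1), miR-301b-5p (8.05 ± 8.16) and miR-130b-3p (7.47 ± 2.86; SD, n = 3). The neighbours miR-3590-5p and miR-130a-3p overlapped, as did the 3 scarcest entries, while the other steps were larger than the spread. The 4 guides together stood at 1591.3 ± 406 CPM in MMT, 1909.3 ± 578 in MnCl2 and 1531 ± 281 in control libraries (SD, n = 3), so the groups overlapped in the family's total.

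miR-301b-3p, a minor guide strand with 373 counts over all libraries, was the member whose groups lay apart. It had 27, 19 and 36 counts in the MMT libraries, 29, 48 and 37 in the MnCl2 libraries and 88, 50 and 39 in the control libraries. Scaled, these were 23, 23.9 and 25.6 CPM in MMT, 40.1, 46.9 and 38.8 CPM in MnCl2 and 49, 48.9 and 59.3 CPM in control libraries. Every MMT library was lower than every other library, and on this scale every MnCl2 library was lower than every control library. Per total counts alone, MnCl2 2 (51.8 CPM) lay above control 1 (43.7) and control 2 (49.7), so MnCl2 and control overlapped, while the MMT libraries (22 to 26 CPM) still lay below all others. Its mean was 24.2 ± 1.31 CPM in MMT and 52.4 ± 6 CPM in control libraries (SD, n = 3), a log2 fold change of -1.11 (SE 0.27). It was the only one of the 8 members whose MMT and control libraries did not overlap. Of 1113 entries, 2.79% lay apart with lower and 1.8% with higher MMT levels (1.63% and 2.28% of miRNA entries), and since miR-301b-3p was chosen on this contrast nothing is read from that. Counting error alone was wide at this depth. Before scaling, the 95% Wilson intervals ended at 32, 40.7 and 32.3 CPM in MMT and began at 35.5, 37.7 and 48.9 in control libraries. These intervals cover counting error only. In this bulk tissue, fewer cells that hold a miRNA and less of it per cell cannot be told apart.

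Set against its near-identical relative in the same library, miR-301b-3p again stood low in MMT, in the same counts on which it was chosen. For every 100 counts of miR-301a-3p there were 1.9, 2.34 and 1.56 counts of miR-301b-3p in MMT libraries, 1.94, 4.13 and 2.71 in MnCl2 libraries and 3.97, 3.54 and 6.51 in control libraries. The MMT libraries lay below the control libraries, but MnCl2 1 lay among the MMT libraries and MnCl2 2 among the control libraries. The mean ratio was 1.94 ± 0.392 in MMT and 4.67 ± 1.6 in control libraries, and this ratio needs no scaling between libraries. In MnCl2 it averaged 2.93 ± 1.11 (SD, n = 3), which did not separate from control by an exact two-sided permutation test (p = 0.3, adjusted p = 0.6 over 4 such tests, where 3 against 3 allows no p below 0.1). With 1 base between the entries and the mismatches allowed in counting not given, reads of one may have been counted in the other. As a share of the 4 guides, miR-301a-3p held 80.2% to 81.7% in MMT, 80.1% to 81.3% in MnCl2 and 74% to 78.5% in control libraries, and miR-301b-3p held 1.25% to 1.91% in MMT, 1.58% to 3.35% in MnCl2 and 2.73% to 4.81% in control libraries. These ranges were picked after their values were seen and were not tested.

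**Figure D2:**
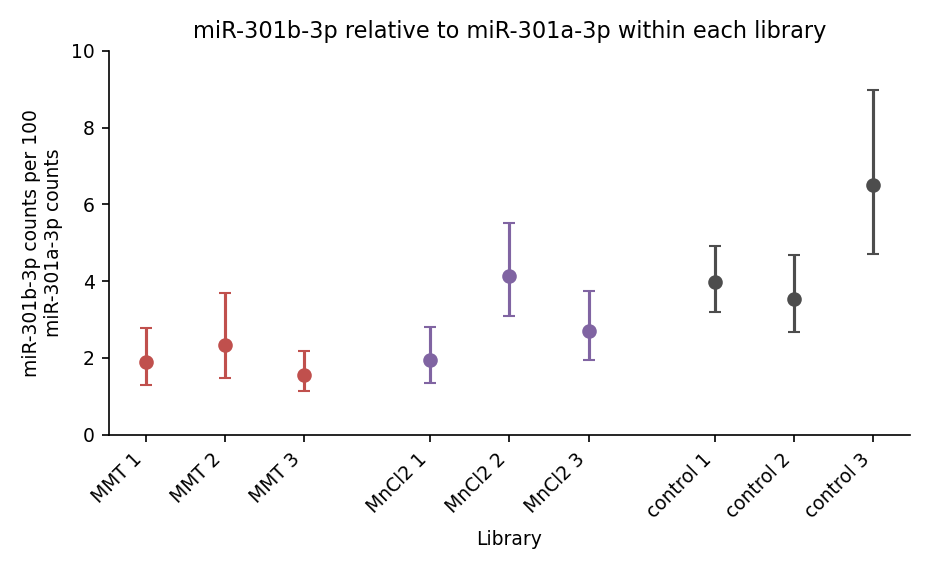
Counts of miR-301b-3p per 100 counts of miR-301a-3p in each of the 9 libraries, with 95% Wilson intervals of counting error as bars. The 3 MMT libraries lie at 1.56 to 2.34, the MnCl2 libraries at 1.94 to 4.13 and the control libraries at 3.54 to 6.51.

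The other guides did not share the low values of miR-301b-3p in MMT. miR-301a-3p was at 1211, 1018 and 1638 CPM in MMT, 2063, 1135 and 1435 CPM in MnCl2 and 1234, 1380 and 911 CPM in control libraries. MMT and control overlapped (log2 fold change 0.13, SE 0.24), and MnCl2 1 held the highest level of all. miR-130a-3p, which is known for promoting vessel growth in human endothelial cells, was at 240, 198 and 374 CPM in MMT, 424, 215 and 310 CPM in MnCl2 and 283, 349 and 256 CPM in control libraries. Its groups overlapped as well (MMT against control -0.12, SE 0.27). miR-130b-3p, made from the hairpin next to that of miR-301b, had 10, 7 and 6 counts in MMT, 7, 2 and 8 in MnCl2 and 10, 11 and 4 in control libraries. The cluster partner thus did not lie apart in MMT, at 7.19 ± 2.54 CPM against 7.47 ± 2.86 in control (SD, n = 3), but at so few counts a difference of the size seen for miR-301b-3p might not be detectable.

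The 5p arms gave another picture. miR-301a-5p, the most abundant of them, was at 146, 137 and 179 CPM in MMT, 187, 136 and 164 CPM in MnCl2 and 125, 138 and 120.2 CPM in control libraries. MMT 1, MMT 3, MnCl2 1 and MnCl2 3 lay above all control libraries, and the groups overlapped in the remaining ones (MMT against control 0.27, SE 0.17). miR-301b-5p had 10, 16 and 5 counts in MMT, 11, 15 and 21 in MnCl2 and 1, 7 and 11 in control libraries, and miR-130b-5p had 5, 13 and 4 in MMT, 5, 15 and 17 in MnCl2 and 5, 8 and 17 in control libraries. Their log2 fold changes for MMT against control were 0.52 (SE 0.94) and -0.60 (SE 0.91), with overlapping groups.

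The 5p share of a precursor's counts varied little between libraries for miR-301a and more for miR-301b, miR-130b and miR-130a. The latter precursors had fewer counts. For the more abundant miR-130a, whose 5p arm is not a member, the 5p share ran from 1.55% in control 1 to 11.65% in MnCl2 2. The 5p arm took 10.7%, 11.8% and 9.86% of miR-301a counts in MMT, 8.3%, 10.7% and 10.2% in MnCl2 and 9.21%, 9.08% and 11.7% in control libraries. For miR-301b it took 27%, 45.7% and 12.2% in MMT, 27.5%, 23.8% and 36.2% in MnCl2 and 1.12%, 12.3% and 22% in control libraries. The MnCl2 shares of miR-301b-5p lay above all control shares, at 29.2% ± 6.37 in MnCl2 against 11.8% ± 10.4 in control libraries (SD, n = 3; exact two-sided permutation test p = 0.1, the smallest this design allows, adjusted p = 0.4). The closest shares were 23.8% in MnCl2 2 (95% Wilson interval 15% to 35.6%) and 22% in control 3 (12.8% to 35.2%). The lowest control share rests on 1 count of the 5p arm, in control 1. The same exact test gave p = 1 (adjusted 1) for miR-301a and p = 0.6 (adjusted 0.8) for miR-130b. For miR-130b the shares ran from 33.3% to 65% in MMT, from 41.7% to 88.2% in MnCl2 and from 33.3% to 81% in control libraries. Counting error differed between the precursors. In MMT 2 the 95% Wilson interval of the share was 43.3% to 81.9% for miR-130b and 30.5% to 61.8% for miR-301b. It was 6.15% to 15% for miR-130a and 9.92% to 14.1% for miR-301a. The part of counting error in the variation between libraries was not tested.

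In relative level the scarce 5p arms stood higher in shallow libraries. miR-301b-5p had its lowest count, 1, in the deepest library, control 1, and its log2 CPM (prior count 2) correlated with the log2 total at r = -0.878 (exact permutation p = 0.00163, adjusted p = 0.0228 over 14 relations; Spearman rho = -0.8, exact p = 0.0138, adjusted 0.0484; n = 9). With control 1 and control 3 dropped, the extremes of depth, Pearson's coefficient was -0.814 (exact p = 0.027, n = 7). For miR-130b-5p, r was -0.843 (exact permutation p = 0.00389, adjusted p = 0.0273; rho = -0.833, exact p = 0.00827, adjusted 0.0386), and without those libraries -0.705 (exact p = 0.075, n = 7), which no longer passed 0.05. CPM have the total as their denominator, and most entries this scarce ran the same way. Over the 246 entries at 20 CPM or less the median r was -0.756. Both arms also passed the filter through shallow libraries. Before scaling, miR-301b-5p reached 10 CPM only in control 3, MMT 2 and the MnCl2 libraries. miR-130b-5p did so only in control 3, MMT 2, MnCl2 2 and MnCl2 3. The p-values of these arms are thus partly set by that selection, and nothing is read from them. miR-301b-3p had r = -0.203 (exact p = 0.597; rho = -0.133, exact p = 0.744) and miR-301a-3p had r = 0.257 (exact p = 0.506; rho = 0.45, exact p = 0.23), in the same family of relations (adjusted p = 0.643 to 0.827). The part of depth in the 5p shares of miR-301b, miR-130b and miR-130a was not tested.

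**Figure D3:**
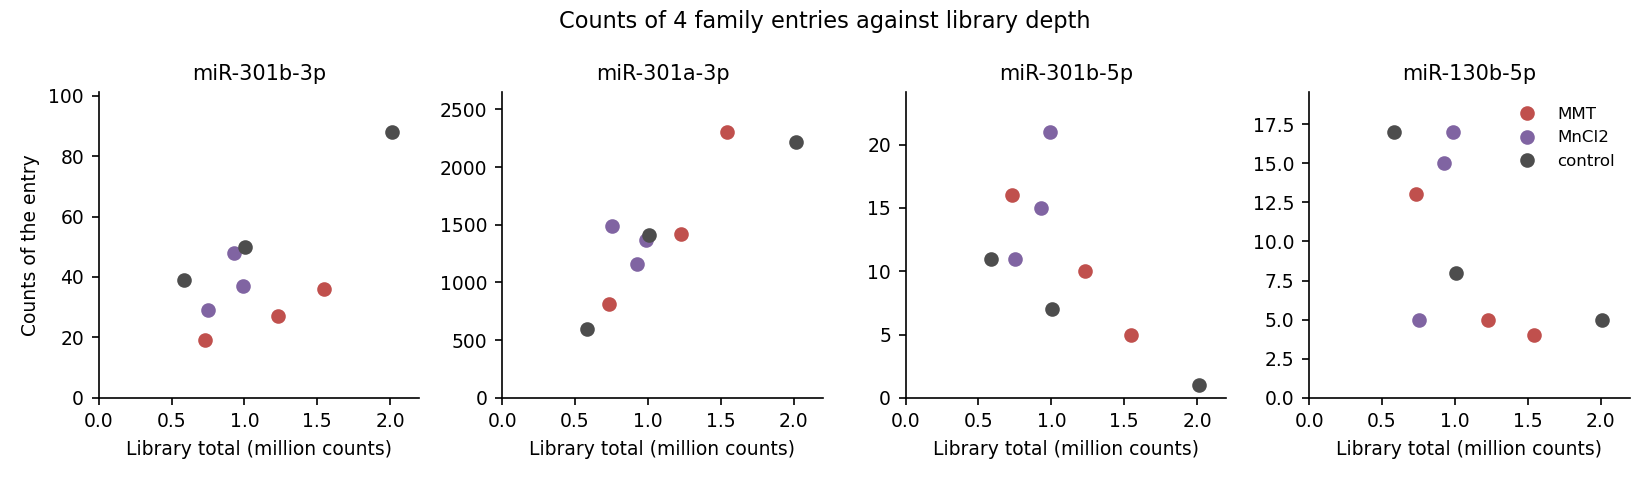
Counts of miR-301b-3p, miR-301a-3p, miR-301b-5p and miR-130b-5p in each library against the library's total, with points coloured by group. miR-301b-5p has its highest count, 21, in MnCl2 3, of middle depth, and its lowest, 1, in control 1, the deepest, while miR-301a-3p has its highest counts in deep libraries, 2305 in MMT 3 and 2218 in control 1.

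miR-3590-5p and miR-130a-3p could not be told apart in these counts. miR-3590-5p had 261, 154 and 541 counts in MMT, 337, 223 and 335 in MnCl2 and 497, 368 and 180 in control libraries. miR-130a-3p had 282, 158 and 526 counts in MMT, 307, 220 and 295 in MnCl2 and 508, 357 and 168 in control libraries. The entries differed by -7.45% to 13.6% within a library, inside the counting error of their difference in all 9, and their log2 CPM correlated at r = 0.984 over the 9 libraries. Whether strand was used in counting is not given, so the same reads may stand behind both entries. The opposite arms of these precursors, miR-3590-3p and miR-130a-5p, are also antisense to each other and had 169 and 190 counts in all. Within a library miR-3590-3p differed from miR-130a-5p by -54.5% to 17.6%, inside the counting error in 8 of the 9.

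**Figure D4:**
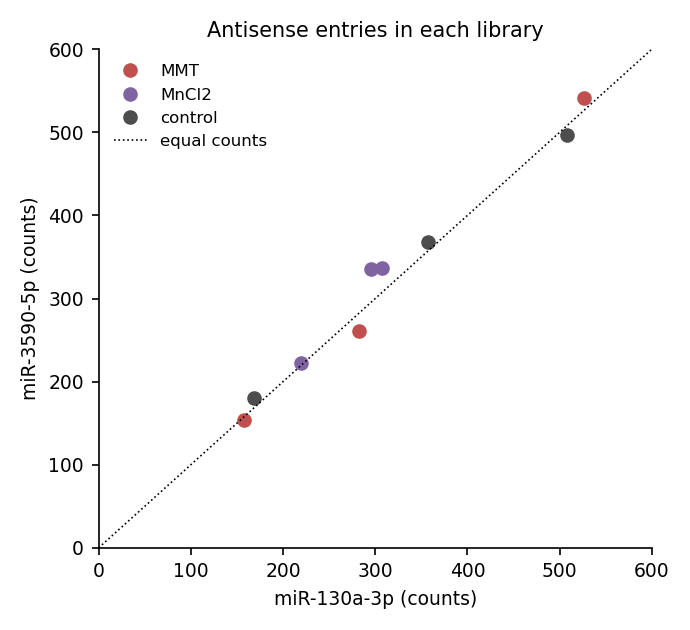
Counts of miR-3590-5p against counts of miR-130a-3p in each library, coloured by group, with the dotted line marking equal counts. The 9 points run from 154 against 158 counts in MMT 2 to 541 against 526 in MMT 3 and stay close to the line.

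The comparison of MnCl2 with control asked how the inorganic positive control stood for the same entries. It shares the control libraries with the contrast on which miR-301b-3p was chosen. The edgeR test called 0 of the 7 members and 0 of 1113 entries (0%; at an unadjusted p under 0.05 there were 0 members and 51 entries, and DESeq2 called 0 with 69 entries at that level). For miR-301b-3p the mean was 42 ± 4.36 CPM in MnCl2 and 52.4 ± 6 CPM in control libraries (SD, n = 3), a log2 fold change of -0.31 (SE 0.27; adjusted p = 0.843 by edgeR). With TMM scaling it was the only member of the 8 whose MnCl2 libraries lay apart from the control libraries, lower in 3 of 3, and without that scaling the groups overlapped. Of all entries, 4.94% lay apart with lower and 4.76% with higher MnCl2 levels, and of miRNA entries 0.813% and 7.8%. The scarce miR-301b-5p was at 17.3 ± 4.11 CPM in MnCl2 and 8.05 ± 8.16 in control libraries (1.26, SE 0.93, edgeR adjusted p = 0.843), a difference that ran from 0.61 without control 1 to 2.32 without control 3. It had passed the filter through every MnCl2 library but only control 3 of the control libraries, so nothing is read from that difference. miR-301a-3p was at 1544 ± 473 CPM in MnCl2 and 1175 ± 240 in control libraries (0.39, SE 0.25), and miR-301a-5p at 162 ± 25.4 CPM in MnCl2 and 127.8 ± 9.15 in control libraries (0.34, SE 0.17), each with an edgeR adjusted p of 0.843. miR-130a-3p (0.09), miR-130b-5p (0.24) and miR-3590-5p (0.18) had adjusted p-values of 0.906 to 0.971.

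Between the manganese compounds, which were given at different doses and in different vehicles, miR-301b-3p again lay lower in MMT. This comparison shares the MMT libraries with the contrast on which it was chosen. The edgeR test called 0 of the 7 members and 0 of 1113 entries (0%; at an unadjusted p under 0.05 there were 1 member, miR-301b-3p, and 22 entries, and DESeq2 called 0 with 34 entries at that level). With 24.2 ± 1.31 CPM in MMT and 42 ± 4.36 CPM in MnCl2 libraries (SD, n = 3), miR-301b-3p had a log2 fold change of -0.79 (SE 0.28; adjusted p = 0.981 by edgeR) and was lower in 3 of 3. Of all entries, 4.76% lay apart with lower and 4.31% with higher MMT levels, and of miRNA entries 6.83% and 1.14%. The other 6 members had log2 fold changes from -0.84 for miR-130b-5p to -0.07 for miR-301a-5p (edgeR adjusted p = 0.981 to 0.986), with overlapping groups. Leaving out 1 library moved miR-130b-5p from -1.82 (without MMT 2) to -0.42 (without MMT 3) and miR-301b-5p from -1.46 to -0.30 with the same libraries left out. Markers of 3 other tissues, those with the lowest medians of the 9 lists, also had lower fitted levels in MMT than in MnCl2. Median log2 fold changes were -0.93 for epithelium (0 of 4 positive), -0.95 for skeletal muscle (0 of 3) and -0.70 for erythrocytes (0 of 2). In MnCl2 against control their medians were 1.17, 1.33 and 0.87, with all fitted entries positive. The fits leave out miR-200c-3p and miR-486, which were below the filter and which the sums below include. miR-200c-3p averaged 1.22 CPM in MMT, 1.44 in MnCl2 and 2.36 in control libraries, and miR-486 averaged 2.82, 2.31 and 4.72 CPM. Epithelial markers summed to 57.97 to 125.6 CPM in MMT, 70.35 to 174.2 in MnCl2 and 55.09 to 94.3 in control libraries. The sums for skeletal muscle were 65.4 to 163 CPM in MMT, 98.2 to 210.3 in MnCl2 and 76.8 to 125 in control libraries, and for erythrocytes 46.9 to 66.1 in MMT, 54.8 to 127 in MnCl2 and 46.2 to 82.2 in control libraries. The part of these markers in the family's values was not tested.

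In MMT against control the edgeR test called 0 of 1113 entries (0%), with 24 at an unadjusted p under 0.05, and DESeq2 called 0 with 23 at that level. Among the 7 members kept by the filter, 3 had positive and 4 negative log2 fold changes, with a median of -0.12, beside 0.04 for all 615 miRNA entries. In MnCl2 against control 6 were positive and 1 negative, with a median of 0.24 beside 0.23. In MMT against MnCl2 all 7 were negative, with a median of -0.36 beside -0.19. These counts leave out miR-130b-3p and may count the miR-130a locus more than once, and the 3 comparisons share libraries.

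**Figure D5:**
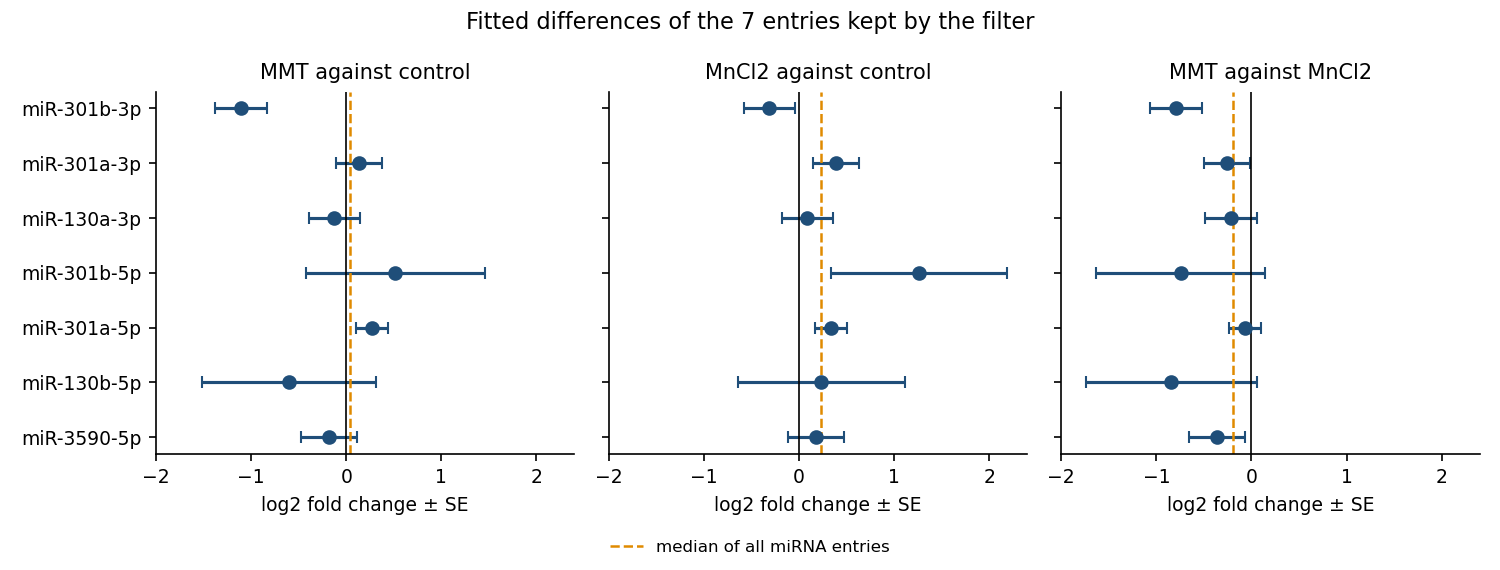
Fitted log2 fold changes (edgeR, ± SE) of the 7 members kept by the filter for MMT against control, MnCl2 against control and MMT against MnCl2, with 0 as a solid line and the median of all 615 miRNA entries as a dashed line. miR-301b-3p lies at -1.11, -0.31 and -0.79, and the scarce 5p arms have the widest errors.

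Families whose seeds overlap that of the miR-130 and miR-301 family by all but 1 base were taken from a list of related seeds, since they can bind overlapping sites. miR-148a-3p and miR-19b-3p are shown with their seeds in capitals.
miR-148a-3p: tCAGTGCActacagaactttg
miR-19b-3p: tGTGCAAAtccatgcaaaactga
The related seed is held by 3 entries of the miR-148 and miR-152 family and 2 of the miR-19 family, and the lists also hold 5p arms with other seeds. None of the 5 entries of the miR-148 and miR-152 family kept by the filter (2 of them 5p arms), nor of the 5 of the miR-19 family (3 of them 5p arms), was called by edgeR in any comparison, and 0 had an unadjusted p under 0.05. Over both arms, the miR-148 and miR-152 entries had a median log2 fold change of 0.12 in MMT against control (5 of 5 positive), 0.45 in MnCl2 against control (4 of 5 positive) and -0.25 in MMT against MnCl2 (1 of 5 positive), beside medians of 0.04, 0.23 and -0.19 over all miRNA entries. miR-148a-3p was at 5188 ± 1430 CPM in MMT, 6559 ± 1650 in MnCl2 and 4785 ± 1030 in control libraries, and miR-148b-3p at 1477 ± 186, 1432 ± 144 and 1463 ± 240 in the same order (SD, n = 3). The miR-19 entries, again over both arms, had medians of 0.04 (4 of 5 positive), 0.23 (4 of 5) and -0.19 (0 of 5). miR-19b-3p, of the growth-promoting miR-17/92 cluster, was at 551 ± 144, 629.5 ± 229 and 542 ± 84.5 CPM in MMT, MnCl2 and control libraries, and miR-19a-3p at 95.5 ± 17.4, 109 ± 33.9 and 92.9 ± 29.9. The list also named miR-454, which has the seed of the family in human, and which had no entry in these data.

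Members fell into different patterns over the 9 libraries. The log2 CPM of miR-301a-3p correlated at r = 0.889 with its own 5p arm and at r = 0.87 with miR-130a-3p, but at r = -0.148 with miR-301b-3p. miR-301b-3p had r = -0.042 with its own 5p arm, while the 5p arms of the clustered miR-301b and miR-130b had r = 0.836. Those 2 arms also correlated with the log2 total, at r = -0.878 and -0.843. The part of depth in their correlation was not tested. Of the other miRNA entries, those most like miR-301b-3p were miR-1-5p (r = 0.796, mean 9.64 CPM), miR-187-3p (r = 0.778, 817.5 CPM) and miR-221-5p (r = 0.67, 37.9 CPM). Those most like miR-301a-3p were miR-3587 (r = 0.983), miR-29b-3p (r = 0.982) and miR-136-5p (r = 0.981), and those most like miR-130a-3p were miR-98-5p (r = 0.963), miR-551b-3p (r = 0.938) and miR-19b-3p (r = 0.923). The nearest entries to miR-301b-3p thus had lower coefficients than the nearest to the abundant guides. miR-301b-3p had 19 to 88 counts per library, against 599 to 2305 for miR-301a-3p. The part of counting error in its coefficients was not tested. The correlations are descriptions over 9 libraries that share the groups and the structure that followed depth.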

How the data were processed

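Per the labels' protocols, TRIzol RNA of striatum was size-selected on a gel and ligated to adapters of the QIAseq miRNA kit. Trimmomatic and the build rn6 are named, per the submitters' processing notes. Which aligner, mismatch limit, strand setting or molecular identifiers were used is not given in the sources used here. The authors deposited raw counts, 1 column per library, for 1759 entries, with no normalization.

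Groups and numbers came from the sample titles. The count test was that of edgeR 4.0.16 under R 4.3.3 (filterByExpr, TMM, robust quasi-likelihood fit, two-sided, Benjamini-Hochberg adjustment over all entries kept at 0.05), with the 9 libraries in 1 fit. The filter kept 1113 entries. CPM use TMM-scaled totals, also for entries below the filter. Ratios and arm shares were taken from counts, and compared by exact permutation for MnCl2 against control, with no test for MMT. The edgeR fit was tested on simulated counts for MMT against control, and the other steps were not. The simulated entries shared a common spread and had no relation with depth, unlike the entries here. Members, lists and alternatives were chosen with earlier results of these data known. All members were named, with the most alike entries and the most abundant of each related family. The alternatives tried comprised DESeq2 1.42.0, scaling by RLE or by totals, leaving out the filter or asking for 10 CPM in 3 libraries, miRNA entries alone, the total as a covariate, a replicate block, no robust weights, 1 added count, and each library left out. Python 3.11.15 with scipy 1.17.1 was used otherwise.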

Additional observations from a re-analysis of the deposited data

How the results depend on the processing

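Entries called stayed at 0 in all 3 comparisons under every alternative run, except that without the low-count filter 1 entry was called in MnCl2 against control, miR-200a-3p, no member of the family (named after its value was seen; edgeR adjusted p = 0.0189). The filter of 10 CPM in 3 libraries kept the same 1113 entries. For miR-301b-3p the log2 fold change ran from -1.24 (miRNA entries alone, in place of -1.11) to -1.004 (without control 3) in MMT against control, from -0.57 to -0.27 in MnCl2 against control and from -0.85 to -0.67 in MMT against MnCl2. Its ratio to miR-301a-3p, MMT minus control, ran from -3.30 to -1.82 as libraries were left out, and MnCl2 minus control from -2.35 to -0.827, each smallest without control 3. Several other members changed sign, and the cause was not tested. In MMT against control, leaving out 1 library gave -0.082 to 0.296 for miR-301a-3p, -0.435 to 0.076 for miR-130a-3p, -0.548 to 0.026 for miR-3590-5p, -0.226 to 1.64 for miR-301b-5p and -1.61 to 0.545 for miR-130b-5p. The sign turned without MMT 3 or control 3 (-0.004) for miR-301a-3p, without MMT 2 or control 2 (0.003) for miR-130a-3p, without MMT 2 or control 1 (-0.161) for miR-301b-5p, without MMT 2 for miR-3590-5p and without control 3 for miR-130b-5p. Scaling miRNA entries alone moved their median log2 fold change by -0.14 in MMT against control, -0.28 in MnCl2 against control and 0.13 in MMT against MnCl2. Under it, MMT against control gave -0.011 for miR-301a-3p, MnCl2 against control gave -0.20 for miR-130a-3p, -0.014 for miR-130b-5p and -0.12 for miR-3590-5p, and MMT against MnCl2 gave 0.072 for miR-301a-5p (0.001 without the filter). Leaving out 1 library gave, in MnCl2 against control, -0.18 to 0.31 for miR-130a-3p (turned without MnCl2 1 or control 3), -0.27 to 1.34 for miR-130b-5p (turned without control 1 or MnCl2 3) and -0.097 to 0.43 for miR-3590-5p (lowest without MnCl2 1). In MMT against MnCl2 it gave -0.47 to 0.013 for miR-301a-3p and -0.52 to 0.06 for miR-130a-3p (both turned without MnCl2 1, miR-130a-3p also without MMT 2), and -0.19 to 0.085 for miR-301a-5p (turned without MMT 2, MnCl2 1 or control 3). The 5p share of miR-301a in MnCl2 minus control ran from -0.712 to 0.597 percentage points (turned without control 3 or MnCl2 1). With the replicate number as a block, miR-301b-3p gave -1.11, -0.31 and -0.79 in the 3 comparisons, and the block called 0 entries in each. Same-numbered libraries shared only a number, with correlations of their deviations from -0.666 to 0.493, and 3 of 9 libraries correlated best with their own number. Depth limits miR-130b-3p and the 5p arms of miR-301b and miR-130b, at 65 to 97 counts over all libraries.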
